A study of Mus musculus with 2 samples.

Results

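The p53 pathway was read in long-term hematopoietic stem cells (LT-HSCs) of aged mice through 10 genes, namely *Trp53*, which encodes p53, its negative regulators *Mdm2* and *Mdm4*, and the target genes *Ccng1*, *Trp53inp1*, *Sesn1*, *Sesn2*, *Zmat3*, *Phlda3* and *Gadd45a*. They were chosen by gene symbol among the 22555 genes named on the arrays, and 12 probes carried them. All 10 genes were well above background on both arrays. p53 is a transcription factor that is held low by Mdm2 and Mdm4 and that, once freed by DNA damage or other stress, switches on genes for cell cycle arrest, DNA repair, stress defence and cell death. *Mdm2* is itself a p53 target, which closes a negative feedback loop. In HSCs, p53 is known for keeping cells quiescent and for limiting the survival of damaged cells.

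LT-HSCs were sorted from femurs and tibias of 2-year-old C57BL/6J mice, and their RNA was hybridized to single-colour Agilent mouse arrays. Each genotype had 1 array, and both arrays shared a slide. The p38αΔ/Δ mice carried CAG-CreERT2, a tamoxifen-activated Cre driven by a promoter active in most tissues, and floxed p38α alleles. They received tamoxifen (TAM) at about 1 year of age, 50 to 60 weeks, so that deletion was not restricted to blood cells. Controls, called p38α+/+, were age-matched p38α fl/fl mice without Cre that also received TAM. The number of mice behind each array is not given in the sources used here, and mice of both sexes were used in the study. The sort gate is CD150+CD48-Flt3-CD34- LSK in the sample labels, with CD41- added in the methods. Supplementary figure legends for p38αΔ/Δ and control LT-HSCs give CD48-CD150+ LSK, so the gate is not settled. With 1 array per genotype there is no spread between mice and no test of any difference.

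The values are scanner signals after the scanner's background subtraction. A level is the log2 signal minus the array's 75th percentile, that is, relative to a signal of 143.4 for p38α+/+ and of 115.1 for the array labelled p38αΔ/Δ, and a difference is the level on the array labelled p38αΔ/Δ minus that on the p38α+/+ array. *Mapk14*, which encodes p38α, did not mark the deletion: its probes had differences of −0.04 (levels 2.34 and 2.31) and −0.05 (levels 2.08 and 2.03). The exons removed by Cre are not given in the sources used here, so whether these probes lie outside them is not known, and the array is called by its label throughout. The study reported the deletion from genomic qPCR of peripheral blood cells of such mice, a measure of DNA and not of LT-HSC RNA. By gene set enrichment it also reported lower expression of p38MAPK pathway genes in p38αΔ/Δ LT-HSCs. Repeated spots of the same probe gave a technical SD of the difference of 0.131 (295 probes), from 0.085 among the brightest probes to 0.272 among the dimmest. The paired probes of 3590 genes differed by a median of 0.43 (quartiles 0.18 and 0.80).

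All 18 HSC genes checked were well above background on both arrays, among them *Kit* at levels 5.66 and 5.57. Of them 15 were lower on the array labelled p38αΔ/Δ, 4 at least 2-fold, with a median of −0.51 (over all 17198 genes kept, 52.3% were lower and 6.62% at least 2-fold lower), and their summed linear level was 262.8 for p38α+/+ and 201.2 on the other array. Of those 4 genes, *Procr* had 1 probe with a difference of −1.22, and the *Erg* probes were at −1.01 and −0.86. The *Hoxa9* probes were at −1.15 and −0.37, and the *Mecom* probes ranged from −1.44 to 0.61. Of 14 neutrophil and other myeloid genes 9 were higher, 6 of them at least 2-fold (4.11% of all genes), with *S100a9* at 2.01 and *Elane* at −1.41. Their summed level was 397.1 and 545.6, or 8.5 and 23.1 without the 2 genes that moved it most, *Csf3r* and *Itgam*. Such a sum is led by the brightest probes. The *Itgam* probes ranged from −0.42 to 0.88. *Ly6g*, among the lower genes, passed the background test on the p38α+/+ array alone, so its direction was nearly set by that test. All 9 measured B lineage genes were higher, 7 of them read on both arrays (*Igll1* was not above background and *Ighm* was not matched). *Ms4a1* and *Ebf1* passed the background test on the array labelled p38αΔ/Δ alone, so their direction was nearly set by that test. *Cd79b* (0.09) and *Cd74* (0.18) lay within their errors of 0.205 and 0.204. The summed level of the 9 genes was 7.4 and 23.0, or 6.3 and 7.8 without *Jchain* (3.75). Also higher were 6 of 9 measured erythroid genes (91.2 and 85.8, or 21.4 and 29.7 without *Car2*) and 2 of 4 monocyte genes (29.8 and 34.3, or 0.9 and 0.8 without *Csf1r*, *Ccr2* not above background). The *Csf1r* probes ranged from −2.22 to 0.76, and *Cx3cr1*, among the lower genes, was well above background on 1 array alone. Of 9 measured T and NK cell genes 5 were higher (*Cd3d*, *Cd3g* and *Ncr1* not above background). Their summed level was 20.5 and 24.3, or 5.2 and 3.8 without *Nkg7* and *Cd4*. They ranged widely, with *Icos* at 3.54, *Cd2* at −2.07, and *Zap70* at −4.43 with its brighter probe and −0.03 with the other. Of the 4 genes for surface markers that the gate of the labels or of the methods excludes, 2 were lower and 2 higher on the array labelled p38αΔ/Δ. *Cd34* stood at levels 2.81 and 2.67 and *Itga2b*, the gene for CD41, at 0.61 and 0.24. *Flt3* stood at −2.31 and −1.95 and *Cd48* at −2.06 and −0.69. The probes differed: *Cd34* was at −0.15 with its brighter probe and −0.9969 with the other, and *Cd48* at 1.37 and 0.19. The 3 *Flt3* probes ranged from −0.07 to 0.88. In such bulk samples fewer cells of a type and less RNA per cell cannot be told apart, and the part of these shifts in the values below was not tested.

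The probe sequences behind the results that turn on a single probe, or on probes that differ, are given first, 5′ to 3′ on the transcript's strand with mm9 coordinates. *Trp53* heads the pathway, *Zmat3* had the lowest difference, and *Mdm4* and *Trp53inp1* each had 2 probes. For *Zmat3* and the other probes of *Mdm4* and *Trp53inp1*, the first 30 bases of each 60-base probe are shown.
Trp53, chr11:69404204-69404263, plus strand: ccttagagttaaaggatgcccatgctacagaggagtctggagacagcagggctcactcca
Mdm4 probe 1, chr1:134888407-134888466, minus strand: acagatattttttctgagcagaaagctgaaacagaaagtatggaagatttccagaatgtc
Mdm4 probe 2, chr1:134886426-134886485, minus strand: gacccattaagctctgtttacagccttgaa
Trp53inp1 probe 1, chr4:11101174-11101233, plus strand: gtgtgtttatgggcacaatgttttctctca
Trp53inp1 probe 2, chr4:11092530-11092589, plus strand: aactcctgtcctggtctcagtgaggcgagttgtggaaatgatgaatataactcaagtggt
Zmat3, chr3:32233831-32233890, minus strand: tccttcagcctaataaatacagaagtctga

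*Trp53* was lower on the array labelled p38αΔ/Δ. Its probe, 1187 bases into the transcript, was spotted 2 times per array and gave signals of 1160.643 and 1072.783 on the p38α+/+ array against 645.561 and 601.555 on the array labelled p38αΔ/Δ. Both spots of the former lay above both spots of the latter. The levels were 2.96 and 2.44, a difference of −0.52 (1.44-fold), or 3.63 times the scanner's own error of 0.144. That error shrinks with the number of spots averaged, and the *Mdm2* probe, of similar brightness with 1 spot, had 0.204. The multiple for *Trp53* is therefore not on the same footing as those of probes with 1 spot. Of the 15644 genes measured on both arrays, 16.1% had a lower difference.

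The negative regulators were near the middle of all genes. The *Mdm2* probe (chr10:117126010-117126069, minus strand), for the ubiquitin ligase that marks p53 for degradation, gave signals of 811.6 and 707.4. After scaling the levels were 2.50 and 2.62, a difference of 0.12 with a scanner error of 0.204, so that the levels lay within the error of each other. With normexp background correction, which adds an offset of 50 to each signal, the difference was −0.01, so no direction can be given for *Mdm2*. *Mdm4* encodes a relative of Mdm2 that covers the activation domain of p53. Its probe 1 gave signals of 177.6 and 142.6, and the level was 0.31 on both arrays. Its probe 2, 3426 bases into the transcript and nearer its 3′ end, gave 91.1 and 87.5, with a difference of 0.26 and an error of 0.206. The 2 *Mdm4* probes thus differed by 0.26, less than the median gap between paired probes.

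**Figure D1:**
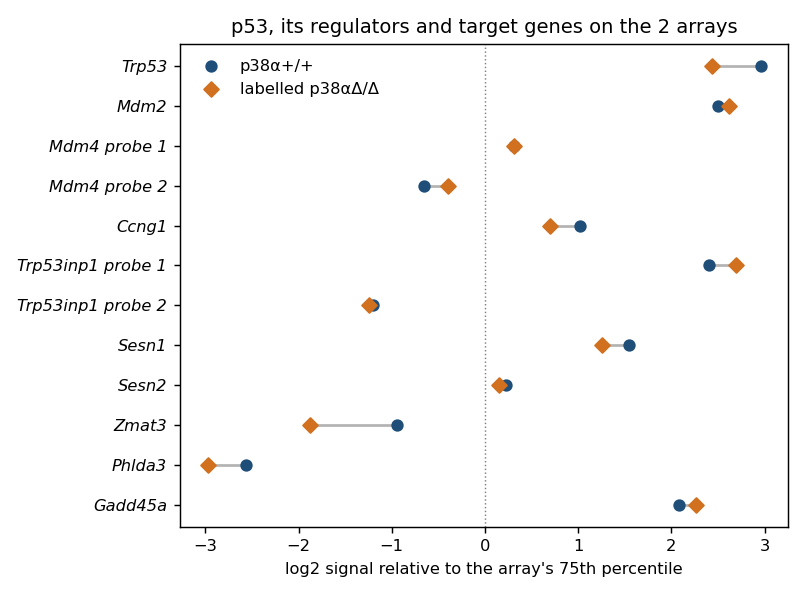
Level of each probe of the 10 genes (x axis, log2 signal minus the 75th percentile of its array) on the p38α+/+ array (circles) and the array labelled p38αΔ/Δ (diamonds), 1 array each. The symbols lie farthest apart for *Zmat3* and *Trp53*, and the symbols of *Mdm4* probe 1 coincide at 0.31; levels of different probes are not comparable with each other.

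*Zmat3* had the lowest difference of the 10 genes. It encodes a zinc finger RNA-binding protein that p53 induces and that acts on splicing and on mRNA stability. Its signals were 74.3 for p38α+/+ and 31.4 for the array labelled p38αΔ/Δ, with levels of −0.95 and −1.88. The difference of −0.93 (1.90-fold) was 4.41 times its scanner error of 0.21, and 5.9% of the genes measured on both arrays had a lower one. The only probe lies 7607 bases into the transcript, in its 3′ part. With normexp the difference was −0.38.

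*Phlda3*, a target whose product holds back the survival kinase Akt, was the dimmest of these probes (chr1:137665642-137665701, plus strand). Its signals were 24.3 and 14.6 and its levels −2.56 and −2.98. The difference of −0.41 was 1.73 times its error of 0.239. It was 0.04 with normexp, the direction turned, so no direction can be given for *Phlda3*.

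*Ccng1* encodes cyclin G1, a target that feeds back on p53 through Mdm2. Its probe (chr11:40562427-40562486, minus strand) gave signals of 290.1 and 186.6 and levels of 1.02 and 0.70. The difference was −0.32 (1.25-fold) with an error of 0.204, and 27.3% of the genes measured on both arrays had a lower one. *Ccng1* was thus lower on the array labelled p38αΔ/Δ by less than 2 scanner errors.

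The sestrins restrain mTORC1 signalling and protect cells from oxidative stress, and HSCs depend on keeping reactive oxygen species low. *Sesn1* (chr10:41628012-41628071, plus strand) gave signals of 418.1 and 275.5, levels of 1.54 and 1.26, and a difference of −0.28 with an error of 0.204. *Sesn2* (chr4:132048858-132048917, minus strand) gave signals of 167.9 and 128.0, levels of 0.23 and 0.15, and a difference of −0.07. Both were lower by less than 2 scanner errors, and *Sesn2* by less than 1.

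*Trp53inp1* encodes a p53-induced nuclear protein that takes part in autophagy and the control of oxidative stress, and had the highest difference of the 10 genes. Its probe 1, 5041 bases into the transcript, gave signals of 760.4 and 742.5, levels of 2.41 and 2.69, and a difference of 0.28 (1.22-fold) with an error of 0.204. Its probe 2, 659 bases into the transcript, gave signals of 62.3 and 48.6, levels of −1.20 and −1.24, and a difference of −0.04. The probes thus lay on either side of 0, with a gap of 0.33 between them.

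*Gadd45a*, a growth arrest and DNA damage gene whose product also activates a kinase upstream of p38, had a probe at chr6:66985376-66985435 on the minus strand. Its signals were 608.2 and 551.4 and its levels 2.08 and 2.26. The difference of 0.18 was smaller than its error of 0.204. Before scaling, all 12 probes of the 10 genes had a lower signal on the array labelled p38αΔ/Δ, whose 75th percentile was lower by 0.32 on the log2 scale, so the higher levels of *Mdm2*, *Mdm4*, *Trp53inp1* and *Gadd45a* on that array rest on the scaling.

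**Figure D2:**
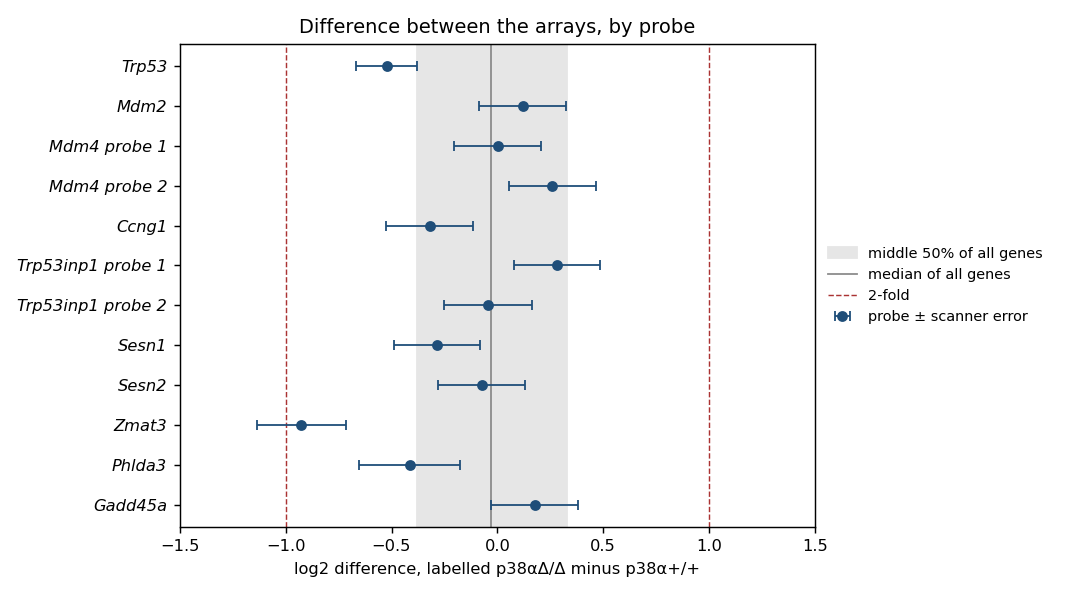
Difference of each probe (x axis, log2, array labelled p38αΔ/Δ minus p38α+/+ array) with the scanner error of the difference as the bar, which covers the reading of the spots and not the spread between mice. The grey band holds the middle of all genes from −0.38 to 0.33 and dashed lines mark a 2-fold difference; *Trp53*, *Zmat3* and *Phlda3* lie to the left of the band and no probe reaches the 2-fold line.

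Over the 10 genes at their brightest probes, 6 were lower and 4 higher on the array labelled p38αΔ/Δ, *Mdm4* by no more than 0.0011, with a median difference of −0.18 and a range from −0.93 to 0.28. With normexp 7 were lower and the median was −0.04. Over all 17198 genes kept, 9003 (52.3%) were lower, the median was −0.03 and the quartiles were −0.38 and 0.33. None of the 10 genes was at least 2-fold different in either direction, against 6.62% of all genes lower by that much (1138) and 4.11% higher by that much (706). That split of all genes was 1503 lower and 550 higher with a loess between the arrays, and 125 and 49 with normexp. With only probes well above background on both arrays, as those of the 10 genes were, it was 786 and 498 of 15658 genes. *Zmat3* and *Trp53*, 2 of 10, were lower by over 2 scanner errors and none was higher, a threshold chosen after the values were seen. Of the 15644 genes measured on both arrays, 20.9% were lower and 17.1% higher by that margin, so on the lower side the share among the 10 genes was near that of all genes.

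**Figure D3:**
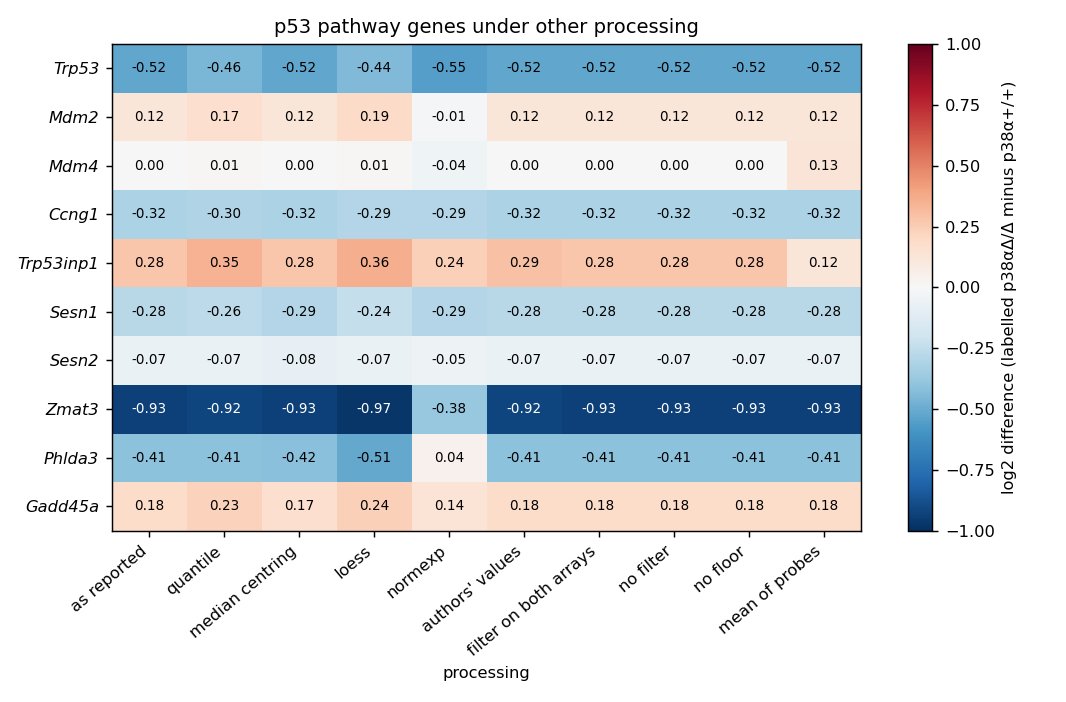
Difference of each of the 10 genes (rows) at its brightest probe, or over the mean of its probes in the last column, under the reported processing and 9 alternatives (columns), as a log2 difference between the array labelled p38αΔ/Δ and the p38α+/+ array (colour and printed value). *Trp53* stays between −0.55 and −0.44, and normexp has the smallest difference for *Zmat3* (−0.38) and gives 0.04 for *Phlda3*.

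p53 binds DNA as a tetramer on pairs of a decamer. In the RefSeq promoter windows of GRCm38.p6, from 250 bases before to 50 after each gene's start, 8 of the 10 genes had an entry, and *Trp53inp1* and *Zmat3* had none. The p53 decamer pattern reads the same on both strands, so that a single search covered them. It was found in 5 of those 8 genes, against 9.55% of the 27025 genes and 8.36% of the 32851 windows. None of the 8 held a pair of decamers at most 13 bases apart, which 24 of all windows (0.0731%) did, including that of *Cdkn1a*. A match is a description of the letters, and the known p53 sites of several of these genes lie in introns outside these windows. The surrounding 60 bases are shown on the gene's strand with the matches in capitals, since these are the members whose promoters hold the pattern, with *Cdkn1a* as the paired case.
Trp53, match starting at −75, chr11:69580259-69580318, plus strand: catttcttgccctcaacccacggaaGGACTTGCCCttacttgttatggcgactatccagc
Mdm2, match starting at −186, chr10:117710910-117710969, minus strand: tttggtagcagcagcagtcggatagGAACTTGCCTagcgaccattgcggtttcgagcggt
Ccng1, match starting at −185, chr11:40755437-40755496, minus strand: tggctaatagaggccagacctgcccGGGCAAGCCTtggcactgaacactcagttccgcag
Sesn1, match starting at −173, chr10:41887241-41887300, plus strand: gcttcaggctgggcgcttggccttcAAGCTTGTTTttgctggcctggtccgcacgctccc
Gadd45a, match starting at −40, chr6:67037413-67037472, minus strand: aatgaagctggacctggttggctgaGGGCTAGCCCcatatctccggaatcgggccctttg
Cdkn1a, matches starting at −73 and −51, chr17:29090881-29090940, plus strand: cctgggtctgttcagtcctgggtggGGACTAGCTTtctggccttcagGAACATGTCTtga
The 5 genes with a match were not of 1 direction: *Trp53* (−0.52), *Ccng1* (−0.32) and *Sesn1* (−0.28) were lower, and *Mdm2* (0.12, but −0.01 with normexp) and *Gadd45a* (0.18) higher.

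Among 31 other regulators of p53, 30 were measured, of which 20 were lower and 10 higher on the array labelled p38αΔ/Δ, with a median of −0.19, and 2 were at least 2-fold lower, a share near the 6.62% of all genes. *Chek2*, a checkpoint kinase that phosphorylates p53 after DNA breaks, had levels of −0.20 and −1.43, a difference of −1.22 (2.34-fold), which was −0.70 with normexp. *Chek1*, the kinase of the replication checkpoint, lay in the opposite direction at 0.86 (levels 0.18 and 1.04). *Ing2*, a chromatin-binding cofactor, was at least 2.78-fold lower, a bound because the array labelled p38αΔ/Δ did not read it well above background, but differed by −0.04 with normexp.

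Other regulators stood closer to 0 or were read differently by their probes. *Zbtb7a*, a repressor of the *Arf* transcript, was at −0.92 with its brighter probe and 0.47 with the other. *Daxx*, a histone chaperone that binds p53 and Mdm2, was at −0.72. *Pml*, the scaffold of nuclear bodies in which p53 is modified, was at 0.53 with its brighter probe and −0.21 with the other, and *Ep300*, an acetyltransferase and coactivator of p53, was at 0.39. For *Cdkn2a*, whose Arf product inhibits Mdm2, neither array gave a signal well above background, and no fold is given.

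The 12 relatives of the 10 genes, of which *Zmat4* was not above background, were 6 lower and 5 higher, with a median of −0.07. *Zmat5*, a zinc finger protein of the minor spliceosome, was lower with a difference of −1.18, which was −0.10 with normexp. *Phlda2* was at −0.76 and *Sesn3*, the third sestrin, at −0.53 (levels 1.19 and 0.66). The p53 homologue *Trp73* was 2.14-fold higher with its brighter probe (a difference of 0.64 with normexp and 0.65 as the mean of its probes) and at 0.20 with the other, while *Trp63* was at 0.19 and *Zmat1* at 0.21.

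**Figure D4:**
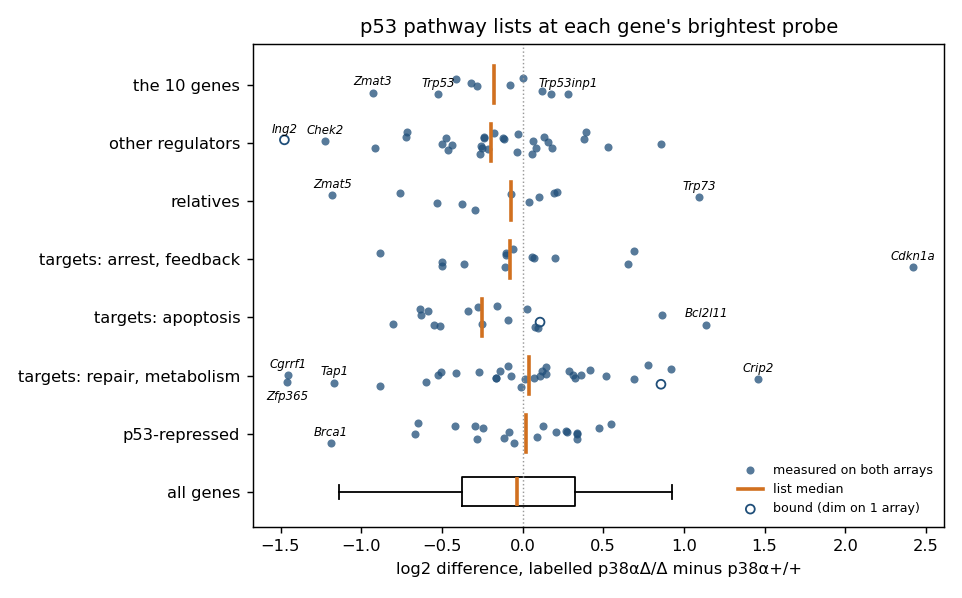
Difference of each gene at its brightest probe (x axis, log2, array labelled p38αΔ/Δ minus p38α+/+ array) for the 10 genes and 6 other lists of the p53 pathway, with list medians as bars, open circles for genes with a dim side (bounds) and all genes as a box with whiskers at the 5th and 95th percentiles. List medians lie between −0.25 and 0.04 and *Cdkn1a* lies farthest from 0 at 2.42, though its other probes, not drawn, gave 0.09 and 0.74.

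The other p53 targets were 67 genes, of which 63 were measured, 61 of them on both arrays. Of the 63 genes, 34 were lower and 29 higher, with a median of −0.07. In either direction 3 were past 2-fold, near the shares of all genes (6.62% lower and 4.11% higher). The 14 genes of cell cycle arrest and feedback were 8 lower and 6 higher (median −0.08). *Cdkn1a* encodes p21, the cyclin-dependent kinase inhibitor through which p53 arrests cells, and its probes did not give the same reading. Its probe 1619 bases into the transcript, spotted 10 times per array, gave signals from 9.329 to 14.185 (median 10.938) on the p38α+/+ array and from 40.947 to 53.529 (median 49.337) on the array labelled p38αΔ/Δ. The spots of the arrays did not overlap, and the difference was 2.42 (5.35-fold) with an error of 0.086, made small by the averaging of 10 spots. The probe at base 147 gave 13.4 and 11.4, a difference of 0.09, and the probe at base 55 gave 7.23 and 9.70, a difference of 0.74 with an error of 0.345. The first was higher by well over its error and the probe at base 147 was not, and the gene's difference was 0.86 with normexp and 1.08 as the mean of its probes. On the p38α+/+ array the probe at base 147 was brighter than the first. The first counted as the brightest by its mean level over both arrays, which its signal on the array labelled p38αΔ/Δ raised. In the same list *Rprm*, an inhibitor of entry into mitosis, was at −0.88, *Rchy1*, a ubiquitin ligase for p53, at −0.50 and *Plk3*, a stress kinase, at −0.50, whereas *Gtse1*, which moves p53 out of the nucleus, was at 0.69 and *Sfn*, a 14-3-3 protein, at 0.66.

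The 19 apoptosis genes, of which *Trp53aip1* was not matched and *Eda2r* was not above background, were 11 lower and 6 higher, with a median of −0.25. *Tnfrsf23*, among the higher, passed the background test on the array labelled p38αΔ/Δ alone, so its direction was nearly set by that test. *Bax*, which permeabilizes the mitochondrial outer membrane, gave signals of 1389.7 and 638.1, levels of 3.28 and 2.47, and a difference of −0.81 (1.75-fold) with an error of 0.204. It kept that size with normexp (−0.80). *Bbc3*, which encodes the BH3 protein Puma, gave signals of 551.3 and 450.6 and a difference of 0.03, within its error. *Dapk1* was at −0.64 and *Perp*, a membrane protein of p53-dependent cell death, at −0.63. In the other direction, *Bcl2l11*, which encodes the BH3 protein Bim, was at 1.14 (0.50 with normexp) and *Pidd1* at 0.86 with its brighter probe and −0.44 with the other, and *Apaf1*, the core of the apoptosome, was at 0.10.

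The 34 targets of DNA repair, metabolism and other roles, of which *Lif* and *Tspan11* were not above background, were 15 lower and 17 higher, with a median of 0.04. *Dram1*, among the higher, passed the background test on the array labelled p38αΔ/Δ alone, so its direction was nearly set by that test. *Zfp365* (−1.46), *Cgrrf1* (−1.45) and *Tap1* (−1.17), a peptide transporter of antigen presentation, were at least 2-fold lower. These became −0.08, −0.18 and −0.43 with normexp. *Crip2*, a LIM domain protein, was at least 2-fold higher at 1.46 (0.52 with normexp). *Thbs1*, an inhibitor of angiogenesis, was at 0.92, and *Polk*, a translesion DNA polymerase, at 0.78 with its brighter probe and −0.17 with the other.

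The 20 cell cycle genes that are known to be lower when p53 and p21 are active were 10 lower and 10 higher, with a median of 0.02. *Brca1*, of homologous recombination, was at −1.19 (−0.04 with normexp), *Ccnb1*, the mitotic cyclin B1, at −0.67 and *Cdc25b*, a phosphatase of mitotic entry, at −0.65. *Cdk1*, whose kinase partners cyclin B1, was at 0.55 with its brightest probe and as low as −0.29 with another, *Plk1* was at 0.48 and *Ccna2* at 0.34.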

How the data were processed

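RNA of LT-HSCs of each genotype was hybridized, Cy3-labelled, to 1 Agilent array (probe coordinates of mm9). The authors deposited the scanner intensity of each spot from Agilent Feature Extraction 11.5.1.1 (background-subtracted, not scaled between arrays), and their own normalized log2 values (35795 probes), each column being the log2 signal minus a constant (7.16 and 6.84). RNA extraction to normalization was outsourced.

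Control spots and outlier spots were left out (19 of 55681 probes), spots of a probe were averaged and each array's 75th percentile was subtracted from the log2 signal. Probes well above background numbered 37786 (67.9%) and 38422 (69.0%), with 0 saturated spots. Genes were named through RefSeq symbols of GRCm38.p6, 31778 probes in all. A gene was read from its brightest probe. Where a signal failed the scanner's background test and was smaller than the lowest signal on its array that passed it (5.706 and 4.361), it was set to that signal, and genes dim on both arrays were left out. The number of arrays limits the precision. Called means at least 2-fold. The 10 genes and the lists were chosen with earlier results of these data known. Named genes were the 10 genes, *Mapk14*, *Cdkn1a*, *Bax*, *Bbc3*, *Cdkn2a*, in each list the 3 lowest and 3 highest differences of genes that both arrays measured, and those at least 2-fold different; genes of the cell type lists were named after their values were seen. Values were recomputed with a loess (span 0.3), quantile normalization or median centring between arrays, with normexp (offset 50) and from the authors' values. They were also recomputed with a filter on both arrays, with no filter, with no floor, and after averaging the probes of each gene. This covered the 10 genes, the medians of the p53 pathway lists, and the median and 2-fold counts over all genes. It also covered *Mapk14*, *Bax*, *Bbc3*, *Chek1* and the genes of those lists at least 2-fold different. For the other named genes, the surface markers, and the cell type lists and their sums, the dependence on the processing was not tested. Calculations were tested on simulated data. Software was R 4.3.3 with limma 3.58.1, and Python 3.11.15 with matplotlib 3.10.9, statsmodels 0.14.6, pandas 2.3.3 and numpy 2.4.6.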

Additional observations from a re-analysis of the deposited data

How the results depend on the processing

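The median difference of the 10 genes, −0.18, was −0.04 with normexp. Otherwise it and the medians of the p53 pathway lists moved by less than the spot noise of 0.131 under the 9 alternatives. None of the 10 genes passed 2-fold under any. Normexp turned the small medians of the arrest list (0.03) and of the repair and metabolism list (−0.01), and the loess that of the p53-repressed list (−0.02). *Trp53*, *Ccng1*, *Sesn1*, *Sesn2* and *Zmat3* were lower, and *Trp53inp1* and *Gadd45a* higher, under all 9 alternatives. Several of these could hardly change them: the filter settings, the missing floor and the authors' values leave genes well above background on both arrays as they were. Averaging probes likewise leaves a gene with 1 probe as it was. *Mdm2* (−0.01) and *Phlda3* (0.04) changed sign with normexp only, and *Mdm4* ranged from −0.04 to 0.13. Over all genes, 125 were at least 2-fold lower and 49 higher with normexp, against 1138 and 706 as reported. Normexp adds 50 to each signal, which shrinks differences of dim probes. The median over all genes moved by at most 0.082. No paired analysis was possible because each genotype had 1 array, and no replicate could be left out. Dim signals limit *Phlda3* (24.3 and 14.6) and *Zmat3* (74.3 and 31.4), which was −0.38 with normexp. Outside the 10 genes they limit *Cdkn1a*, whose brightest probe over both arrays gave 11.2 on the p38α+/+ array and whose difference was 0.86 with normexp. On the p38α+/+ array its probe at base 147 was brighter, with 13.4.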
